A study of Mus musculus with 24 samples.

Results

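Ifit1, Ifit2, Ifit3, Ifit3b, Rsad2 (which encodes viperin) and Cmpk2 were taken by symbol from the deposited gene table, and all 6 were found among its 34113 rows. They were followed across 24 libraries of T cells isolated from the spleens of C57BL/6N mice, in 8 groups of 3. The groups were KO lymphoma, WT lymphoma, KO control and WT control, each in CD8 and in CD4 cells, where KO stands for Atm-/- and WT for Atmwt/wt, and Atm encodes a protein kinase of the response to DNA breaks. Lymphoma mice had received a transplant of B-cell lymphoma and control mice none. CD8 and CD4 libraries were made from the same 12 pools, which held 22 mice in all. A single mouse gave each pool of the WT lymphoma group, and 2 or 3 mice gave each of the rest. The Atm allele, the lymphoma line, its dose and timing, the ages of the mice and the way CD8 and CD4 cells were separated are not given in the sources used here.

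These genes are a core part of the antiviral programme that interferons switch on. Type I interferon binds the receptor IFNAR1 with IFNAR2, the kinases JAK1 and TYK2 are activated, and a transcription factor complex that includes IRF9 then binds interferon-stimulated response elements in promoters. The IFIT proteins, built of tetratricopeptide repeats, bind foreign RNA and hinder its translation, viperin turns CTP into a chain terminator of viral RNA synthesis, and CMPK2 is a nucleoside monophosphate kinase that can feed CTP to it. T cells respond to interferon with the same genes and do not need to be infected to do so.

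The members lie at 2 loci of the mouse genome (GENCODE M21, GRCm38). Ifit2, Ifit3, Ifit3b and Ifit1 stand in that order, all on the plus strand, in a cluster at chr19:34550694-34650009 that also holds Ifit1bl1 and Ifit1bl2 on the minus strand. Rsad2 (chr12:26442746-26456452, minus strand) and Cmpk2 (chr12:26469204-26479837, plus strand) are transcribed away from each other, with 12751 bases between their starts. No other annotated gene overlaps any of the 6 members.

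The core letters of the interferon-stimulated response element, 2 copies of GAAA with 2 bases of any kind between them, read on both strands, were searched in RefSeq promoter windows (GRCm38.p6, 250 bases before to 50 after the start). They were found in 3.44% of all 32851 windows, and 2 or more matches in 0.225%. Ifit1, Ifit3 and Ifit3b each held 2 matches, Rsad2 held 1, and neither the 2 windows of Ifit2 nor that of Cmpk2 held any, which says only that these letters are not in those windows. The stretches from 210 to 31 bases before the start are shown for the 4 members with a match. They are read 5′ to 3′ on the gene's own strand, from chr19:34640679-34640858, chr19:34583319-34583498 and chr19:34607747-34607926 (plus strand) and chr12:26456483-26456662 (minus strand), and capitals mark the matches, all of which lie on the opposite strand and so read as 2 copies of TTTC here. The 2 matches of Ifit1 begin 104 and 85 bases before the start, those of Ifit3 at 156 and 122, those of Ifit3b at 188 and 154, and that of Rsad2 at 120.
Ifit1: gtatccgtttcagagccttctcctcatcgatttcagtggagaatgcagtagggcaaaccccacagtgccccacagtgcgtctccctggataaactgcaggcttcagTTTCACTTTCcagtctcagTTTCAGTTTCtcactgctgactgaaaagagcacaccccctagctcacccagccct
Ifit3: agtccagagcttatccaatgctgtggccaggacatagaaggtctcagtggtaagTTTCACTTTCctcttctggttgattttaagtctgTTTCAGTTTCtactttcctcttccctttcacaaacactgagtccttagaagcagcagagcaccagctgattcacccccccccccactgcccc
Ifit3b: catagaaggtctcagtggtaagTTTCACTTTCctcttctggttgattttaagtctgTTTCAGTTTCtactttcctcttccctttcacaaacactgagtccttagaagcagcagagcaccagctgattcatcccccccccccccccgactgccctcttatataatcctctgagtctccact
Rsad2: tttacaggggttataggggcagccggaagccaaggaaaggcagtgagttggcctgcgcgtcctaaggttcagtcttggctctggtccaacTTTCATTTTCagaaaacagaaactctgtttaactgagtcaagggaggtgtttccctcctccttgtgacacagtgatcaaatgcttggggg
The windows of Ifit3 and Ifit3b were 99.2% identical over 260 aligned bases, and their matches read the same letters. The first window of the neighbour Ifit1bl2 overlaps that of Ifit1 and holds the same 2 matches, seen from its own strand. The neighbour Ifit1bl1 held 1 match in each of its 2 windows. Matches and rises did not go together throughout. Ifit1, Ifit3 and Ifit3b rose with lymphoma in 3 of the 4 comparisons below, and Rsad2 in 1. Without a match, Cmpk2 rose in the same 3 as Ifit1, and Ifit2 in none. These are edgeR's calls, and limma's voom with sample weights called all 6 members in CD8 WT cells. Neither Ifit1bl1 nor Ifit1bl2 passed with lymphoma. The letters of the gamma-activated site, TTCNNNGAA on both strands, were in 8.30% of all windows and, among the members, in 1 window of Ifit2, at 241 bases before the start, where no match of the first motif overlaps it.

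Levels are in CPM, a gene's estimated count scaled by the library's total, which ran from 6470482 to 10196062. Libraries were made from the 3′ ends of transcripts, so a level is compared between libraries and not between genes. Fold changes are log2 values from edgeR's quasi-likelihood test with their standard error after ±, the adjusted p is Benjamini-Hochberg over all genes tested, and genes are said to have risen or fallen only where it was under 0.05. All 6 members passed the filter on low counts in every fit. The replicates of a group came from separate mice, by the mouse identifiers in the labels. The labels were checked first: Atm was at 26.9 to 107 CPM in KO and 117 to 210.35 CPM in WT libraries, and the pair Cd8a and Cd8b1 summed to 317 to 1206 CPM in CD8 and 15.9 to 62.3 CPM in CD4 libraries. All libraries also held RNA of other blood cells. Over the 24 libraries the 10 monocyte and macrophage markers summed to 138 to 2456 CPM, 8 neutrophil markers to 11.2 to 3419, 8 B cell markers to 39.6 to 1077, 6 platelet markers to 46.1 to 457 and 6 erythroid markers to 390.1 to 65629, against 1015 to 3177 for 8 T cell markers. No marker of these lists was at 0 in any library except the neutrophil genes Ly6g (in 8 libraries), Ltf (in 3) and Elane (in 1). In bulk samples, more cells of a type and more RNA per cell cannot be told apart.

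Lymphoma went with higher members in 3 of the 4 backgrounds tested. In CD8 cells of KO mice 5 of 6 members rose, all but Ifit2, where 1.39% of all genes tested rose, and in CD8 cells of WT mice 4 rose (Ifit1, Ifit3, Ifit3b and Cmpk2), where 1.26% rose. In CD4 cells of KO mice no member passed, and no gene of 12808 did (0%). In CD4 cells of WT mice the same 4 as in CD8 WT cells rose, where 1.62% of all genes rose. The members' median log2 fold change was 1.57 in CD8 KO, 2.28 in CD8 WT, 1.22 in CD4 KO and 2.14 in CD4 WT cells, and the median of all genes lay between -0.02 and -0.01.

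The groups stood apart more often than the calls show. Every lymphoma library was above every control library for 5 members in CD8 KO cells (all but Ifit2), for all 6 in CD8 WT cells, for 4 in CD4 KO cells (Ifit1, Ifit3, Ifit3b and Cmpk2) and for all 6 in CD4 WT cells. Among all genes tested this was so for 14%, 14.2%, 8.8% and 16.4%, in the same order. In CD4 KO cells, where edgeR called no gene at all, 1953 genes and 4 members (the same 4) had an unadjusted p under 0.05. DESeq2 called 343 genes with 4 members, and limma's voom with sample weights called 711 with 5.

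**Figure D1:**
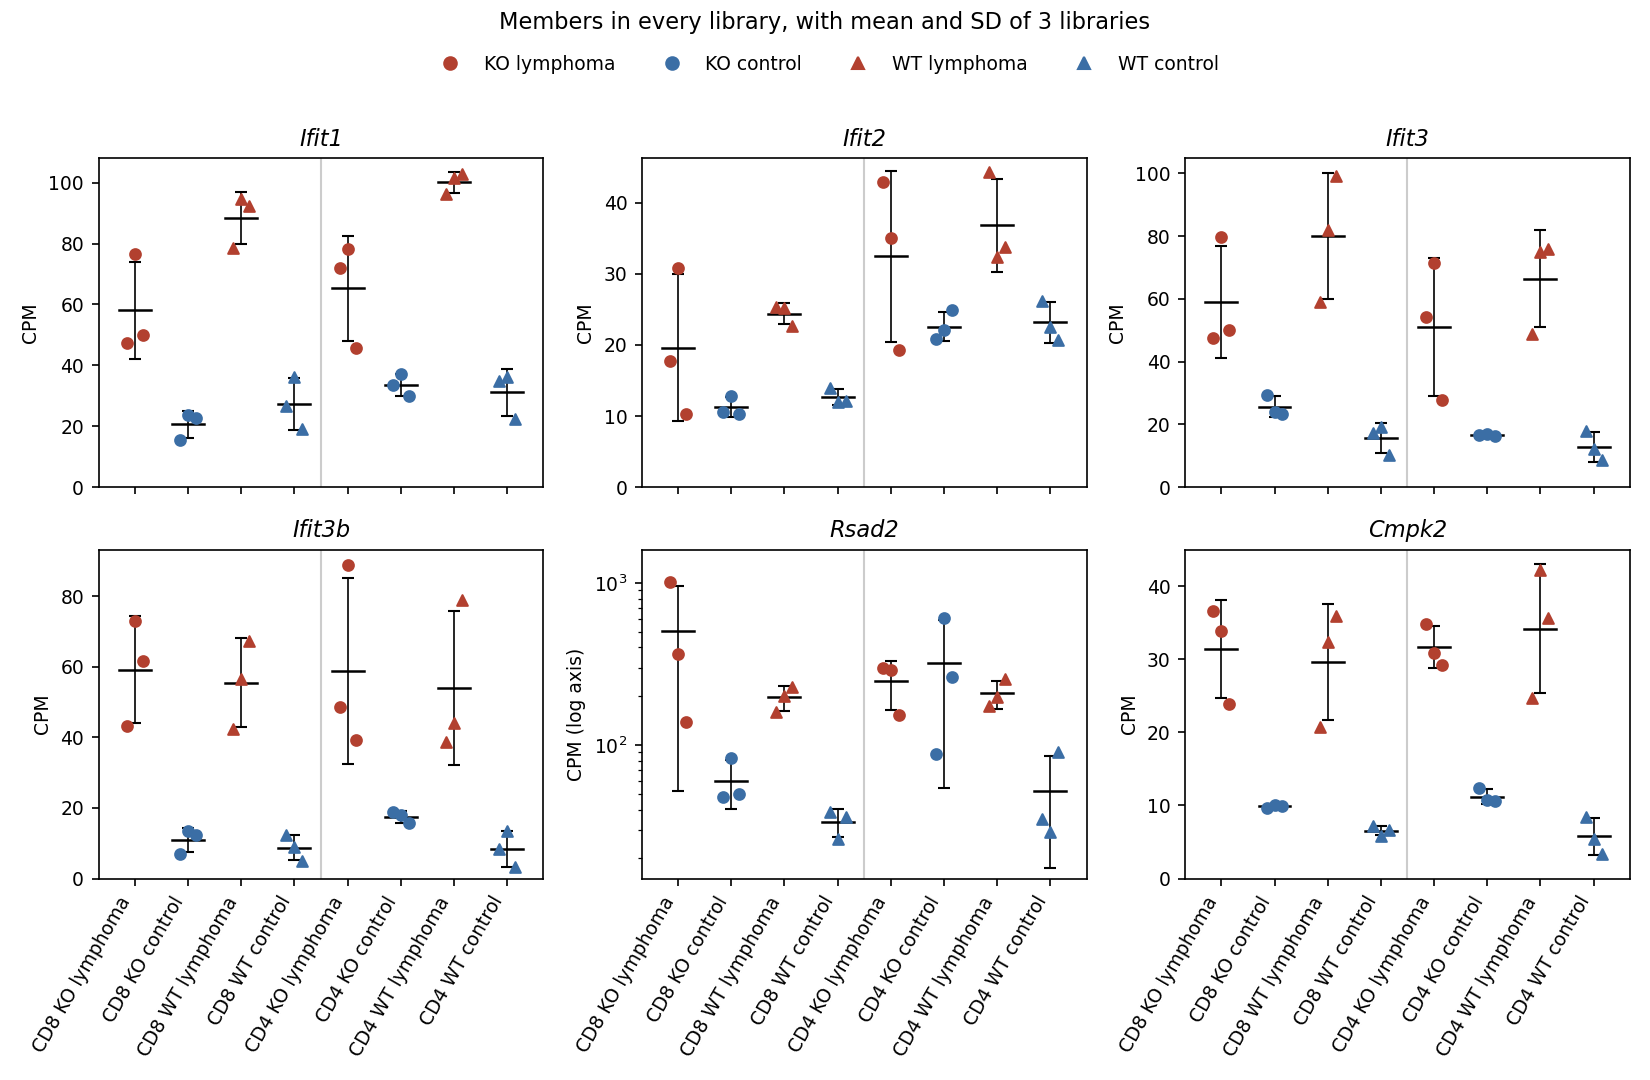
CPM of each member in every library, by group, with lymphoma groups in red, control groups in blue, KO as circles and WT as triangles; black bars are the mean and SD of 3 libraries, and Rsad2 is on a log axis. Lymphoma libraries lie above control libraries for most members, Ifit2 lies lower in CD8 than in CD4 groups, and Rsad2 is widely spread in CD8 KO lymphoma (138 to 1008 CPM) and CD4 KO control (87.7 to 611 CPM).

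Single libraries decided some of these counts. In CD8 KO cells the count of members fell to 0 when any 1 of the 3 control libraries was left out, while the log2 fold changes of the 5 stayed between 1.16 and 3.36 and the genes called in all dropped to 0, 5 and 0. The count was 2 without KO lymphoma 1 (Ifit3b and Cmpk2) and 3 without KO lymphoma 3 (Ifit3b, Rsad2 and Cmpk2). For CD4 WT cells it was 2 without WT lymphoma 2 (Ifit1 and Cmpk2) and 3 or 4 otherwise. For CD4 KO cells it was 2 without KO lymphoma 3 (Ifit1 and Ifit3) and 1 without KO lymphoma 2 (Cmpk2). In CD8 WT cells it was 3 or 4 whichever library was left out.

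Other cells' markers moved with the same groups, and their part in the members' differences was not tested. Platelet markers summed to 274.3 to 396 CPM in CD8 KO lymphoma against 122 to 244 in CD8 KO control libraries, and to 236 to 297 in CD8 WT lymphoma against 46.1 to 90.7 in CD8 WT control libraries. They summed to 287 to 457 CPM in CD4 KO lymphoma against 120.3 to 289.5 in CD4 KO control libraries, and to 206 to 244 in CD4 WT lymphoma against 48.8 to 71.7 in CD4 WT control libraries. Of the 6 platelet markers 1 rose in CD8 KO, 4 in CD8 WT, 0 in CD4 KO and 5 in CD4 WT cells. Monocyte and macrophage markers summed to 1683 to 2298 CPM with lymphoma against 891 to 959 in controls of CD8 KO, and to 862 to 1697 with lymphoma against 138 to 796 in controls of CD8 WT cells. The CD4 sums were 1707 to 2456 CPM with lymphoma against 1121 to 1445 in controls of KO, and 957 to 1564 with lymphoma against 385 to 698 in controls of WT mice. Of the 10 only Cybb rose, in CD4 WT cells. Neutrophil markers summed to 241 to 3419 CPM in CD8 KO lymphoma against 49.4 to 54.8 in CD8 KO control libraries, and to 129 to 178 in CD8 WT lymphoma against 11.2 to 128 in CD8 WT control libraries. Their CD4 sums were 176 to 725 CPM in KO lymphoma against 169 to 190 in KO control, and 236 to 635 in WT lymphoma against 26.9 to 143 in WT control libraries, and of the 7 tested only Mpo rose, in CD4 WT cells (4.78 ± 1.05, adjusted p = 0.0487). T cell markers summed to 1015 to 1883 CPM in CD8 KO lymphoma against 2270 to 2486 in CD8 KO control libraries, and to 1783 to 2269 in CD8 WT lymphoma against 2537 to 2820 in CD8 WT control libraries. Of the 8, Cd2 (-0.68 ± 0.14, adjusted p = 0.0448) and Cd3e (-0.95 ± 0.19, adjusted p = 0.0386) fell in CD8 KO cells and none passed in CD8 WT, CD4 KO or CD4 WT cells. Natural killer markers averaged less with lymphoma: 390 against 564 CPM in controls of CD8 KO, 162 against 256 in CD8 WT, 186 against 461 in CD4 KO and 86.6 against 173 in CD4 WT cells. B cell markers averaged 477 against 226 CPM in CD8 KO, 100 against 208 in CD8 WT, 122 against 589 in CD4 KO and 118 against 206 in CD4 WT cells. The CD8 KO lymphoma libraries were far apart, at 1077, 287 and 65.3 CPM, against 206 to 256 in controls. For natural killer and B cell markers alike, lymphoma and control libraries overlapped in all but CD4 KO cells. Y-linked RNA (Ddx3y, Eif2s3y and Uty), which marks male mice in a pool, also differed: it summed to 4.72, 1.41 and 161 CPM in CD8 WT lymphoma and 54.7, 178 and 118 CPM in CD8 WT control libraries. In CD4 cells it summed to 4.80, 1.88 and 117 CPM in WT lymphoma and 68.1, 189 and 125 CPM in WT control libraries. With a Y-linked score as a covariate, the count of members that rose was 3 in CD8 KO (Ifit1, Ifit3b and Cmpk2), 4 in CD8 WT, 0 in CD4 KO and 4 in CD4 WT cells.

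Ifit1, whose product binds RNA with an unmethylated cap, rose in 3 of the 4 comparisons. Its level was 47.5, 76.5 and 50.1 CPM in the CD8 KO lymphoma libraries, against 15.6, 23.6 and 22.6 CPM in CD8 KO controls (1.49 ± 0.26, adjusted p = 0.0284). The CD8 WT libraries held 78.5, 94.5 and 92.2 CPM with lymphoma and 26.5, 36.1 and 19.2 CPM in controls (1.70 ± 0.26, adjusted p = 0.0111). The lymphoma and control libraries did not overlap in either genotype, and the WT lymphoma libraries lay above all KO lymphoma libraries. In CD4 KO cells Ifit1 was at 72.1, 78.2 and 45.7 CPM with lymphoma and 33.5, 37.1 and 29.8 CPM without (0.96 ± 0.24, adjusted p = 0.158). CD4 WT cells had it at 96.3, 102 and 103 CPM with lymphoma and 34.9, 36.3 and 22.3 CPM without (1.61 ± 0.25, adjusted p = 0.00867), a 3.05-fold rise. The third CD4 KO lymphoma library stood below the other 2 of its group, still above every CD4 KO control. By mean level the order from low to high was CD8 KO control, CD8 WT control, CD4 WT control, CD4 KO control, CD8 KO lymphoma, CD4 KO lymphoma, CD8 WT lymphoma and CD4 WT lymphoma. Neighbours overlapped except at the step from CD4 KO control to CD8 KO lymphoma and at both steps from CD4 KO lymphoma upward. With 1 library left out the rise in CD8 WT cells did not pass in 4 of 6 cases, with adjusted p from 0.0569 to 0.0584. That in CD8 KO cells passed in only 1 of 6 cases, and that in CD4 WT cells in all 6.

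Ifit2, whose product pairs with IFIT3 and promotes cell death in overexpression studies, passed in none of the 4 with edgeR. With voom it was called in CD8 WT cells, as all 6 members were. It was at 17.8, 30.8 and 10.3 CPM in CD8 KO lymphoma and 10.5, 12.9 and 10.3 CPM in CD8 KO control libraries (0.80 ± 0.30, adjusted p = 0.121), which overlapped, since KO lymphoma 3 was as low as the lowest controls. Ifit2 in CD8 WT cells was at 25.4, 25.2 and 22.7 CPM with lymphoma and 14.0, 11.9 and 12.1 CPM in controls (0.97 ± 0.30, adjusted p = 0.125), with no overlap. CD4 KO libraries held Ifit2 at 43.0, 35.0 and 19.3 CPM with lymphoma and 20.8, 22.1 and 24.9 CPM in controls (0.52 ± 0.26, adjusted p = 0.375), and KO lymphoma 3 was below all 3 controls. For CD4 WT cells the level was 44.3, 32.4 and 33.8 CPM with lymphoma and 26.3, 22.5 and 20.7 CPM in controls (0.61 ± 0.26, adjusted p = 0.291), with no overlap. From low to high the group means ran CD8 KO control, CD8 WT control, CD8 KO lymphoma, CD4 KO control, CD4 WT control, CD8 WT lymphoma, CD4 KO lymphoma and CD4 WT lymphoma, and all 7 pairs of neighbours overlapped.

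Ifit3, whose product stabilises the binding of IFIT1 to RNA in human cells, rose in the same 3 comparisons as Ifit1. Its level in CD8 KO cells was 47.7, 79.7 and 49.99 CPM with lymphoma and 29.5, 24.0 and 23.3 CPM in controls (1.21 ± 0.28, adjusted p = 0.0495). That in CD8 WT cells was 59.1, 81.9 and 99.2 CPM with lymphoma and 17.2, 19.3 and 10.1 CPM in controls (2.37 ± 0.29, adjusted p = 0.00387), a 5.16-fold rise. The libraries of the groups did not overlap, and the KO controls lay above all WT controls. Ifit3 in CD4 KO cells was at 54.2, 71.3 and 27.6 CPM with lymphoma and 16.7, 16.99 and 16.2 CPM in controls (1.63 ± 0.36, adjusted p = 0.13). The CD4 WT libraries held 48.6, 74.8 and 75.8 CPM with lymphoma and 18.01, 12.02 and 8.50 CPM in controls (2.29 ± 0.37, adjusted p = 0.0121). KO lymphoma 3 was again the lowest of the 6 CD4 lymphoma libraries. By mean level the order was CD4 WT control, CD8 WT control, CD4 KO control, CD8 KO control, CD4 KO lymphoma, CD8 KO lymphoma, CD4 WT lymphoma and CD8 WT lymphoma. All neighbours overlapped but CD4 KO control and CD8 KO control. Left-out libraries mattered: in CD4 WT cells the rise did not pass without WT control 2 (adjusted p = 0.0561) or WT lymphoma 2 (adjusted p = 0.0518). The rise in CD8 KO cells was lost without any library but KO lymphoma 2 (adjusted p from 0.0805 to 0.155).

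Ifit3b, a near copy of Ifit3, rose by 5.35-fold in CD8 KO, 6.41-fold in CD8 WT and 5.96-fold in CD4 WT cells. It was at 43.1, 72.9 and 61.6 CPM with lymphoma and 7.03, 13.5 and 12.3 CPM in controls in CD8 KO cells (2.42 ± 0.33, adjusted p = 0.0169). CD8 WT libraries held 42.4, 56.5 and 67.4 CPM with lymphoma and 12.2, 8.90 and 5.07 CPM in controls (2.68 ± 0.34, adjusted p = 0.00531). Its level in CD4 KO cells was 48.6, 88.8 and 39.3 CPM with lymphoma and 18.8, 17.9 and 15.6 CPM in controls (1.77 ± 0.47, adjusted p = 0.168). The level in CD4 WT cells was 38.7, 44.1 and 78.9 CPM with lymphoma and 8.35, 13.4 and 3.40 CPM in controls (2.57 ± 0.50, adjusted p = 0.0308). No lymphoma library overlapped a control library of its genotype and co-receptor. The 4 lymphoma groups, with means from 53.9 CPM in CD4 WT to 59.2 CPM in CD8 KO cells, overlapped one another. So did CD4 WT, CD8 WT and CD8 KO controls, and only CD4 KO control stood between. The rise in CD4 WT cells did not pass without WT control 1 (adjusted p = 0.16), WT control 3 (adjusted p = 0.0601), WT lymphoma 2 (adjusted p = 0.0712) or WT lymphoma 3 (adjusted p = 0.0911).

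The longest Ifit3 and Ifit3b transcripts are 97.997% identical over 1697 aligned bases, with a shared run of 329. The Ifit3 transcript is 1745 bases long and that of Ifit3b 2000. Most of the last 400 bases of Ifit3, the end from which 3′ tags are made, thus lie within this near-identical stretch. When only the last 400 bases of each were set against each other, 97 bases aligned at 93.8% identity, with a shared run of 28. That second alignment does not measure how alike the tags of the 2 genes are. How reads were split between the 2 genes was not tested. Ifit3 took 41.3% to 80.8% of the reads of the pair (median 57.0%) over the 24 libraries. Its share was 49.9% ± 4.37 in CD8 KO lymphoma and 70.1% ± 9.25 in CD8 KO control libraries, and 59.0% ± 0.666 in CD8 WT lymphoma and 64.5% ± 5.33 in CD8 WT control libraries (SD, n = 3 each). It was 46.2% ± 5.90 in CD4 KO lymphoma and 48.9% ± 1.92 in CD4 KO control libraries, and 55.9% ± 6.97 in CD4 WT lymphoma and 62.3% ± 13.1 in CD4 WT control libraries (SD, n = 3 each). Summed as 1 gene, the pair changed by 1.69 ± 0.27, adjusted p = 0.0276 in CD8 KO, 2.49 ± 0.27, adjusted p = 0.00167 in CD8 WT, 1.70 ± 0.38, adjusted p = 0.136 in CD4 KO and 2.42 ± 0.40, adjusted p = 0.0136 in CD4 WT cells, with the same calls as each gene alone.

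Rsad2 encodes viperin. Its spread between libraries was the widest of the members in CD8 KO lymphoma (SD 89.7% of the mean) and CD4 KO control (83.1%), but not in every group. In CD8 WT lymphoma it was 17.5%, against 22.6% for Ifit3b. In CD8 KO cells Rsad2 was at 1008, 364 and 138 CPM with lymphoma and 47.5, 83.3 and 49.8 CPM in controls (3.06 ± 0.59, adjusted p = 0.0414), a rise that was 2.05 (adjusted p = 0.104) without KO lymphoma 1. Rsad2 in CD8 WT cells was at 161, 199.97 and 229.3 CPM with lymphoma and 38.8, 26.4 and 36.0 CPM in controls (2.56 ± 0.58, adjusted p = 0.0577). In both genotypes the lymphoma libraries stood above all controls, and the first KO lymphoma library was above every other library of the series. CD4 KO libraries held Rsad2 at 299, 289 and 153 CPM with lymphoma and 87.7, 611 and 263 CPM in controls (-0.38 ± 0.60, adjusted p = 0.802). CD4 WT libraries held 174, 197 and 254.5 CPM with lymphoma and 35.2, 28.9 and 91.0 CPM in controls (1.99 ± 0.63, adjusted p = 0.152). The CD4 KO groups overlapped, with KO control 2 the highest of the 6, and the CD4 WT groups did not. Ordered by mean, CD8 WT control, CD4 WT control and CD8 KO control were followed by CD8 WT lymphoma, CD4 WT lymphoma, CD4 KO lymphoma, CD4 KO control and CD8 KO lymphoma, and only the step from CD8 KO control to CD8 WT lymphoma had no overlap.

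Cmpk2, the kinase gene beside Rsad2, was the member with the smallest adjusted p in each of the 4 comparisons. It was at 36.6, 33.8 and 23.9 CPM in CD8 KO lymphoma and 9.63, 10.1 and 9.98 CPM in CD8 KO control libraries (1.66 ± 0.21, adjusted p = 0.0123). Cmpk2 in CD8 WT cells was at 20.8, 32.4 and 35.9 CPM with lymphoma and 7.13, 5.86 and 6.64 CPM in controls (2.19 ± 0.22, adjusted p = 0.00071). The controls were tightly grouped and lay well below the lymphoma libraries in both genotypes. The CD4 KO levels were 34.9, 30.8 and 29.3 CPM with lymphoma and 12.3, 10.7 and 10.6 CPM in controls (1.48 ± 0.27, adjusted p = 0.0918). Those in CD4 WT cells were 24.8, 42.2 and 35.6 CPM with lymphoma and 8.46, 5.43 and 3.40 CPM in controls (2.48 ± 0.29, adjusted p = 0.00311), a 5.57-fold rise that passed without any 1 library. The third CD4 KO lymphoma library, low for the Ifit genes, was near the other 2 of its group here. The 4 lymphoma groups overlapped one another and stood above all controls, and the controls ran CD4 WT, CD8 WT, CD8 KO and CD4 KO from low to high, with overlap only between the WT groups.

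**Figure D2:**
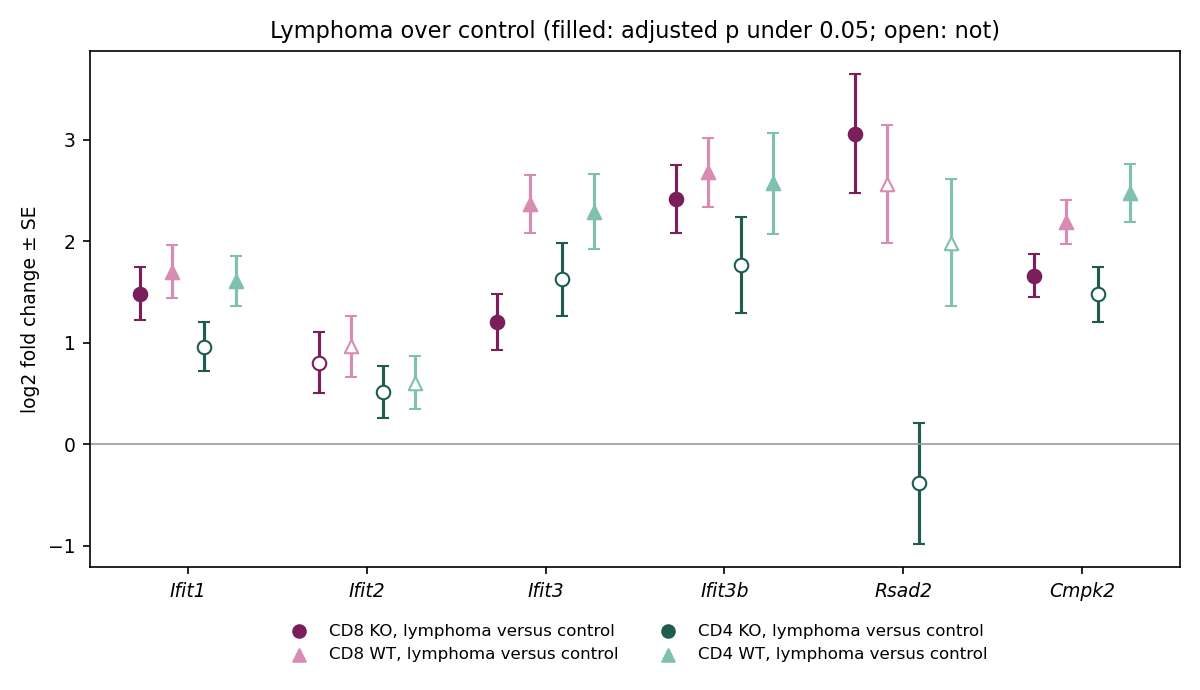
log2 fold change of lymphoma over control with its standard error for each member in CD8 KO, CD8 WT, CD4 KO and CD4 WT cells, n = 3 libraries per group; filled symbols passed the adjusted threshold of 0.05 and open ones did not. All values but that of Rsad2 in CD4 KO cells (-0.38) lie above 0, Ifit2 has the lowest value in each comparison but CD4 KO, and no CD4 KO value is filled.

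The other interferon-stimulated genes moved with the members. Of 33 further genes of this kind (chosen with earlier results of these data known), 16 rose in CD8 KO, 24 in CD8 WT, 0 in CD4 KO and 22 in CD4 WT cells, and none fell. Their median log2 fold change was 0.94, 1.39, 0.81 and 1.32 in that order. Those with the smallest p in CD8 KO cells were Ifi27l2a, a mitochondrial protein gene (1.30 ± 0.15, adjusted p = 0.0123), and the nuclease gene Isg20 (2.62 ± 0.34, adjusted p = 0.0123). In CD8 WT cells they were Oas1a, of the oligoadenylate synthetases that sense double-stranded RNA (2.38 ± 0.20, adjusted p = 0.00033), and Rtp4 (1.81 ± 0.16, adjusted p = 0.000337). In CD4 WT cells they were Oasl2 (2.85 ± 0.28, adjusted p = 0.00311) and Oas1a (2.08 ± 0.23, adjusted p = 0.00311). The 3 with the highest mean CPM over all libraries, Slfn5, Isg15 and Dtx3l, were at 0.86 ± 0.29, adjusted p = 0.219, 1.02 ± 0.28, adjusted p = 0.166 and 0.44 ± 0.21, adjusted p = 0.346 in CD4 KO cells.

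**Figure D3:**
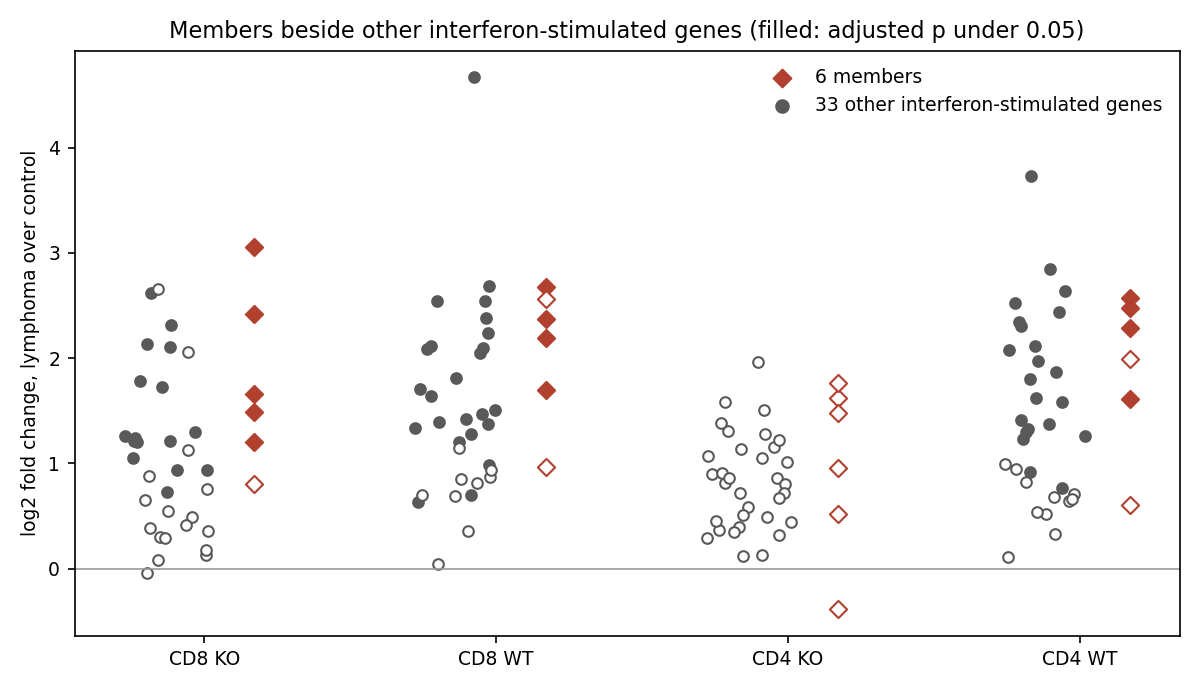
log2 fold change of lymphoma over control of the 6 members (red diamonds) beside 33 other interferon-stimulated genes (grey circles, spread sideways for sight) in 4 comparisons; filled symbols passed the adjusted threshold of 0.05. Rsad2 lies above all 33 in CD8 KO cells (3.06) and below all 33 in CD4 KO cells (-0.38), the other members lie within their range, and in CD4 KO cells no symbol is filled.

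Upstream, few genes moved. Of the 12 kinase and transcription factor genes, 1 rose and 1 fell in CD8 KO, 2 rose in CD8 WT, none passed in CD4 KO and 1 rose in CD4 WT cells. Irf7, the factor that amplifies interferon production and is itself interferon-induced, rose in CD8 KO (1.201 ± 0.26, adjusted p = 0.0482), CD8 WT (1.81 ± 0.26, adjusted p = 0.00949) and CD4 WT cells (1.59 ± 0.27, adjusted p = 0.0131). Irf3, the factor that starts interferon transcription, fell in CD8 KO cells (-0.59 ± 0.13, adjusted p = 0.0486). Among 6 inhibitors, Usp18, which blocks IFNAR2 signalling, rose in CD8 KO (0.94 ± 0.17, adjusted p = 0.0279), CD8 WT (2.39 ± 0.18, adjusted p = 0.000167) and CD4 WT cells (1.91 ± 0.27, adjusted p = 0.00762). None of the 5 receptor genes tested changed with lymphoma in any comparison, with Ifnar1 at -0.35 ± 0.21, -0.38 ± 0.21, -0.21 ± 0.24 and -0.32 ± 0.24 in CD8 KO, CD8 WT, CD4 KO and CD4 WT cells. Of the 10 interferon genes listed, 8 had no count in any library, Ifnb1 had 1 count in 1 CD8 WT control library, and only Ifng, the type II interferon, was tested, with no call for lymphoma.

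None of the near relatives and partners of the members passed with lymphoma. Ifit1bl1, an Ifit1-like gene in the cluster, was at 31.0, 58.8 and 39.2 CPM in CD8 KO lymphoma and 38.8, 36.8 and 37.4 CPM in CD8 KO control libraries (0.19 ± 0.22, adjusted p = 0.62). In CD8 WT cells it was at 55.7, 61.6 and 60.1 CPM with lymphoma and 32.6, 44.1 and 29.1 CPM in controls (0.75 ± 0.22, adjusted p = 0.103), groups that did not overlap. Its differences in CD4 KO (0.32 ± 0.31, adjusted p = 0.655) and CD4 WT cells (0.62 ± 0.31, adjusted p = 0.378) did not pass either. Ifit1bl2 had 3 to 25 counts per library and log2 fold changes from -0.47 to -0.11, none called. Of 10 genes of CTP supply, among them Cmpk1, and of 4 measured genes of the machinery that inserts iron-sulfur clusters into proteins such as viperin, none was called in the 4 lymphoma comparisons.

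Beyond the members, neighbours at the 2 loci gave no call for lymphoma versus control. Of the 3 nearest protein-coding genes on each side of each locus, 12 in all, 7 were tested and none was called in any of the 4 lymphoma comparisons. Pank1, a pantothenate kinase gene 156931 bases past the Ifit cluster, had the largest differences, in CD8 WT (1.23 ± 0.36, adjusted p = 0.0995) and CD4 WT cells (1.34 ± 0.46, adjusted p = 0.185). Lipa, the lysosomal lipase gene 23220 bases before Ifit2, was at 0.42 ± 0.13, adjusted p = 0.13 in CD8 WT cells, and Rnf144a, 27492 bases past the end of Rsad2, was at -0.15 ± 0.14, adjusted p = 0.614. Some neighbours passed in other comparisons. Fas, before the Ifit cluster, was lower in KO than in WT CD8 lymphoma cells (-1.02 ± 0.15, adjusted p = 0.0254). In the fit without the pairing of mice, Lipa was lower in CD8 than in CD4 cells of WT (-0.58 ± 0.12, adjusted p = 0.00668) and KO controls (-0.43 ± 0.12, adjusted p = 0.0421). Rnf144a was higher in CD8 cells of WT controls there (0.53 ± 0.14, adjusted p = 0.0432).

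Loss of Atm was compared within each co-receptor and condition, and no member passed in any of the 4 comparisons. Of all genes, 0.245% passed in CD8 lymphoma, 0% in CD4 lymphoma, 0.522% in CD8 control and 2.01% in CD4 control cells. In CD4 lymphoma cells, where edgeR called no gene, 1390 genes and 1 member (Ifit1) had an unadjusted p under 0.05, and DESeq2 and voom called 85 and 81 genes with no member among them. DESeq2 called 1 member, Rsad2, in CD4 control cells, and none in the other 3, and voom called none in all 4.

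Ifit1 stood lower in every KO lymphoma library than in every WT lymphoma library, at 58.0 ± 16.1 CPM in KO and 88.4 ± 8.68 CPM in WT in CD8 cells (-0.59 ± 0.25, adjusted p = 0.252). In CD4 cells it was at 65.3 ± 17.3 CPM in KO and 100.2 ± 3.44 CPM in WT (-0.63 ± 0.24, adjusted p = 0.386; SD, n = 3 each). It was the only 1 of the 6 members whose lymphoma groups did not overlap between the genotypes. Of all genes, 21.6% in CD8 and 12.9% in CD4 cells were apart in either direction, which is near the members' share. Rsad2 averaged 503 ± 452 CPM in KO and 197 ± 34.4 CPM in WT lymphoma libraries of CD8 cells (1.37 ± 0.55, adjusted p = 0.232), and the groups overlapped. Among controls, the KO libraries lay above all WT libraries for Ifit3, Rsad2 and Cmpk2 in CD8 cells and for Ifit3b and Cmpk2 in CD4 cells. Of all genes, 24.7% in CD8 and 32.7% in CD4 controls were apart in either direction, so the 2 of 6 members in CD4 controls are near the share of all genes. Cmpk2 averaged 9.90 ± 0.243 CPM in KO and 6.54 ± 0.641 CPM in WT controls of CD8 cells (0.64 ± 0.22, adjusted p = 0.224), and 11.2 ± 0.970 CPM in KO and 5.76 ± 2.55 CPM in WT controls of CD4 cells (0.86 ± 0.28, adjusted p = 0.139). Rsad2 averaged 320.7 ± 266 CPM in KO and 51.7 ± 34.2 CPM in WT controls of CD4 cells (2.60 ± 0.64, adjusted p = 0.0633), and it passed without WT control 3 (3.22 ± 0.70, adjusted p = 0.0415).

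Some other interferon-stimulated genes differed between KO and WT controls. In CD8 controls 1 of the 33, Oas1a, was higher in KO than in WT cells (1.59 ± 0.20, adjusted p = 0.00639), with Usp18 (1.29 ± 0.18, adjusted p = 0.00882) and the interferon gamma receptor gene Ifngr1 (0.92 ± 0.17, adjusted p = 0.0409). In CD4 controls 6 of the 33 were higher in KO cells, led by Oas1a (1.32 ± 0.23, adjusted p = 0.0268) and Oasl1 (1.29 ± 0.25, adjusted p = 0.0312), with Irf8 (1.35 ± 0.27, adjusted p = 0.032), Ifng (1.56 ± 0.33, adjusted p = 0.0399) and the receptor gene Il10rb (0.82 ± 0.19, adjusted p = 0.0487). None of the 33 passed between KO and WT cells with lymphoma. Of the 10 monocyte and macrophage markers 7 were also higher in KO than in WT CD4 controls, where they summed to 1121 to 1445 CPM in KO and 385 to 698 CPM in WT libraries, and 4 of 6 platelet markers were. None of either list passed in CD8 controls. Natural killer markers summed to 405 to 520 CPM in KO and 75.7 to 299 CPM in WT CD4 controls, with Eomes called higher in KO at 1.09 ± 0.22, adjusted p = 0.0363, and B cell markers to 516 to 690 CPM in KO and 39.8 to 476 CPM in WT CD4 controls, with none called. Y-linked RNA summed to 2.69, 1.25 and 57.7 CPM in KO and 68.1, 189 and 125 CPM in WT CD4 controls, and to 3.82, 2.79 and 66.5 CPM in KO and 54.7, 178 and 118 CPM in WT CD8 controls. The part of these cells in the differences was not tested.

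An interaction term, KO response minus WT response, compared the lymphoma responses of the genotypes. No gene passed in CD8 (0%) or CD4 cells (0%), with 442 and 466 genes at an unadjusted p under 0.05, and DESeq2 called 1 gene in each and voom none. In CD8 cells the member with an unadjusted p under 0.05 was Ifit3, with a response of 1.21 in KO and 2.37 in WT cells (difference -1.16 ± 0.39, 95% interval -2.06 to -0.26, adjusted p = 0.9997 from edgeR). In CD4 cells they were Rsad2 (difference -2.37 ± 0.86, interval -4.35 to -0.39) and Cmpk2 (difference -0.999 ± 0.39, interval -1.89 to -0.11), both lower in KO. The other differences ran from -0.53 (Cmpk2) to 0.50 (Rsad2) in CD8 and from -0.81 (Ifit3b) to -0.09 (Ifit2) in CD4 cells. The intervals of Ifit1 were -1.06 to 0.63 in CD8 and -1.44 to 0.14 in CD4 cells. The absence of calls in CD4 KO cells is therefore not shown to be a smaller response.

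CD8 and CD4 libraries came from the same mice, and between them Ifit2 differed most steadily. With the mouse pool as a block, Ifit2 was lower in CD8 than in CD4 cells in KO lymphoma (-0.66 ± 0.17, adjusted p = 0.0417), KO control (-0.92 ± 0.18, adjusted p = 0.00424) and WT control mice (-0.84 ± 0.17, adjusted p = 0.00996), and no member passed in WT lymphoma mice. In KO controls Ifit1 (-0.62 ± 0.16, adjusted p = 0.0225) and Rsad2 (-1.996 ± 0.47, adjusted p = 0.0316) were also lower in CD8 cells and Ifit3 was higher (0.70 ± 0.18, adjusted p = 0.0233). The blocked counts of members were 1, 0, 4 and 1 in KO lymphoma, WT lymphoma, KO control and WT control mice, where 4.1%, 3.45%, 8.96% and 4.81% of all genes passed.

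Without the block, which leaves out the pairing, the only member called was Rsad2 in KO controls (-2.32 ± 0.65, adjusted p = 0.0454), where 4.95% of all genes passed, against 2.35%, 2.54% and 3.48% in KO lymphoma, WT lymphoma and WT control mice. That call was lost without any library but CD4 KO control 1, and without CD4 KO control 2 the value was -1.46 ± 0.62, adjusted p = 0.299. Ifit2 averaged 11.3 ± 1.42 CPM in CD8 and 22.6 ± 2.08 CPM in CD4 cells of KO controls, and 12.7 ± 1.13 CPM in CD8 and 23.2 ± 2.82 CPM in CD4 cells of WT controls (SD, n = 3 each). In KO lymphoma libraries it averaged 19.6 ± 10.4 CPM in CD8 and 32.5 ± 12.1 CPM in CD4 cells, and the libraries overlapped (11.5% of all genes were apart there, and no member). Ifit2 libraries did not overlap between the co-receptors in WT control mice, nor did those of Ifit1 and Ifit2 in WT lymphoma mice, where 17.5% and 20.4% of all genes were apart. In KO controls all 6 members were apart between the co-receptors, Ifit3 higher in CD8 and the other 5 lower, where 33.6% of all genes were apart in either direction. The response to lymphoma, CD8 minus CD4, gave no member past the threshold in KO (0% of all genes) or WT mice (0%), with 628 and 180 genes at an unadjusted p under 0.05. DESeq2 called 4 and 1 genes and voom 0 and 0, none of them a member. With the block 25 genes (0.189%), no member among them, passed for KO mice. The largest such difference of a member was that of Rsad2 in KO mice (3.46 ± 0.90, adjusted p = 0.818; with the block 2.76 ± 0.65, adjusted p = 0.209).

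Pathway genes were compared between co-receptors with the same mouse pool block, applied to these lists after the data were seen. Of the 33 other interferon-stimulated genes, 0 passed as above and 1 as below the level of CD4 cells in CD8 cells of KO lymphoma mice, 0 above and 4 below in WT lymphoma, 2 above and 5 below in KO control and 1 above and 4 below in WT control mice. Slfn5, a Schlafen family gene, was lower in CD8 cells of KO lymphoma (-0.55 ± 0.099, adjusted p = 0.00402), WT lymphoma (-0.53 ± 0.098, adjusted p = 0.00567), KO control (-0.96 ± 0.0999, adjusted p = 3.26e-05) and WT control mice (-0.87 ± 0.0996, adjusted p = 7.83e-05). Ifi27l2a, Ifi44 and Ifih1 also passed as lower in WT lymphoma, KO control and WT control mice, and Isg20 in KO controls (-2.15 ± 0.30, adjusted p = 0.000503). Oas3 was higher in CD8 cells of KO (0.66 ± 0.15, adjusted p = 0.0146) and WT controls (0.70 ± 0.17, adjusted p = 0.0228), and Mx1 in KO controls (1.0098 ± 0.23, adjusted p = 0.0142). Of the 5 receptor genes, Ifnar2 was higher in CD8 cells in KO (0.41 ± 0.098, adjusted p = 0.0169) and WT controls (0.46 ± 0.0996, adjusted p = 0.0118). Ifngr1 was higher (0.91 ± 0.14, adjusted p = 0.00105) and Ifngr2 lower (-0.86 ± 0.12, adjusted p = 0.000269) in CD8 cells of KO controls, and Il10rb was higher in those of WT lymphoma (0.64 ± 0.16, adjusted p = 0.0381) and WT control mice (0.76 ± 0.16, adjusted p = 0.0101). Of the 12 kinase and transcription factor genes, 2 were lower in CD8 cells of KO controls, among them Irf5 (-0.85 ± 0.18, adjusted p = 0.0102), and of the 6 inhibitors Ptpn6 was higher in those of KO lymphoma mice (0.48 ± 0.10, adjusted p = 0.0165). Of the 10 genes of CTP supply, 4 were higher in CD8 cells of KO controls: Nme1, Nme2, Cad and Uck2, by 0.37 to 0.74 on the log2 scale. Without the block, the 33 held 2 lower genes in KO controls (Isg20 and Ifi27l2a), 1 in WT controls (Ifi27l2a) and 0 with lymphoma, and the CTP supply list 1 higher gene, Nme2.

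Rsad2 varied with red cell RNA across libraries, more so than the other 5 members. The 6 erythroid markers (globin genes and Alas2 among them) summed to 65629, 7828 and 1071 CPM in CD8 KO lymphoma and 1233, 3347 and 2019.9 CPM in CD8 KO control libraries. They summed to 5072, 34834 and 19130.4 CPM in CD4 KO control and 793, 425 and 9396 CPM in CD4 WT control libraries. The libraries with the most erythroid RNA in the series, CD8 KO lymphoma 1 and CD4 KO control 2, were also those with the most Rsad2, at 1008 and 611 CPM. Over the 12 control libraries the log2 CPM of Rsad2 and the erythroid score had r = 0.92 (rho 0.94, and r = 0.85 without the 2 libraries farthest from the median score). Over the 12 lymphoma libraries it was 0.78 (rho 0.36, and r = 0.41 without the 2 farthest), so there it rests largely on those 2 libraries. For the other 5 members r with the erythroid score ran from -0.27 to 0.28 in control and from -0.44 to 0.24 in lymphoma libraries. Some of them varied with other cells' markers. Cmpk2 had r = 0.68 with platelet markers in control and 0.18 in lymphoma libraries. With monocyte and macrophage markers Cmpk2 had r = 0.45 in control libraries (rho 0.71, and r = 0.88 without the 2 farthest) and 0.23 in lymphoma libraries. Ifit3b had r = 0.33 with them in control libraries (rho 0.73, and r = 0.82 without the 2 farthest) and 0.20 in lymphoma libraries. Ifit1 had r = 0.03 with monocyte and macrophage markers in control and -0.70 in lymphoma libraries. Set against its neighbour Cmpk2, Rsad2 had 5.77 to 27.6 counts per Cmpk2 count in CD8 KO lymphoma and 4.94 to 8.25 in CD8 KO control libraries. The ratio was 7.11 to 56.9 in CD4 KO control and 4.16 to 26.8 in CD4 WT control libraries. This ratio of 3′ tags is compared between libraries only. In the other 4 groups it ran from 4.50 to 9.38. The correlations describe libraries that share mice between co-receptors and mix genotypes, and carry no test.

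With the erythroid score as a covariate, a choice made after the data were seen, the values of Rsad2 came closer together. Its lymphoma response was 1.89 ± 0.37, adjusted p = 0.0567 in CD8 KO, 2.32 ± 0.34, adjusted p = 0.0144 in CD8 WT, 0.74 ± 0.56, adjusted p = 0.604 in CD4 KO and 1.85 ± 0.47, adjusted p = 0.0921 in CD4 WT cells. The call thus moved from CD8 KO to CD8 WT cells and the value in CD4 KO cells changed sign. The difference between KO and WT in CD4 controls was 1.08 ± 0.70, adjusted p = 0.751, and that between CD8 and CD4 cells in KO controls was -0.97 ± 0.50, adjusted p = 0.438. The count of members that rose was then 2 in CD8 KO cells (Ifit3b and Cmpk2, with Ifit1 at an adjusted p of 0.0509 and Ifit3 at 0.0519), 5 in CD8 WT, 0 in CD4 KO and 4 in CD4 WT cells. Markers of other cells moved with Rsad2 as well, and their part was not tested. Neutrophil markers had r = 0.74 in control and 0.61 in lymphoma libraries, n = 12 each. In the same order r was 0.66 and 0.79 for B cell, 0.41 and 0.82 for dendritic cell and 0.37 and 0.64 for natural killer markers. Monocyte and macrophage markers had 0.50 and 0.53, and platelet markers 0.36 and 0.25. Without the 2 libraries farthest from the median score, the lymphoma values were 0.25 for neutrophil, 0.0079 for B cell, 0.46 for dendritic cell and 0.67 for natural killer markers. They were 0.51 for monocyte and macrophage and 0.17 for platelet markers.

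**Figure D4:**
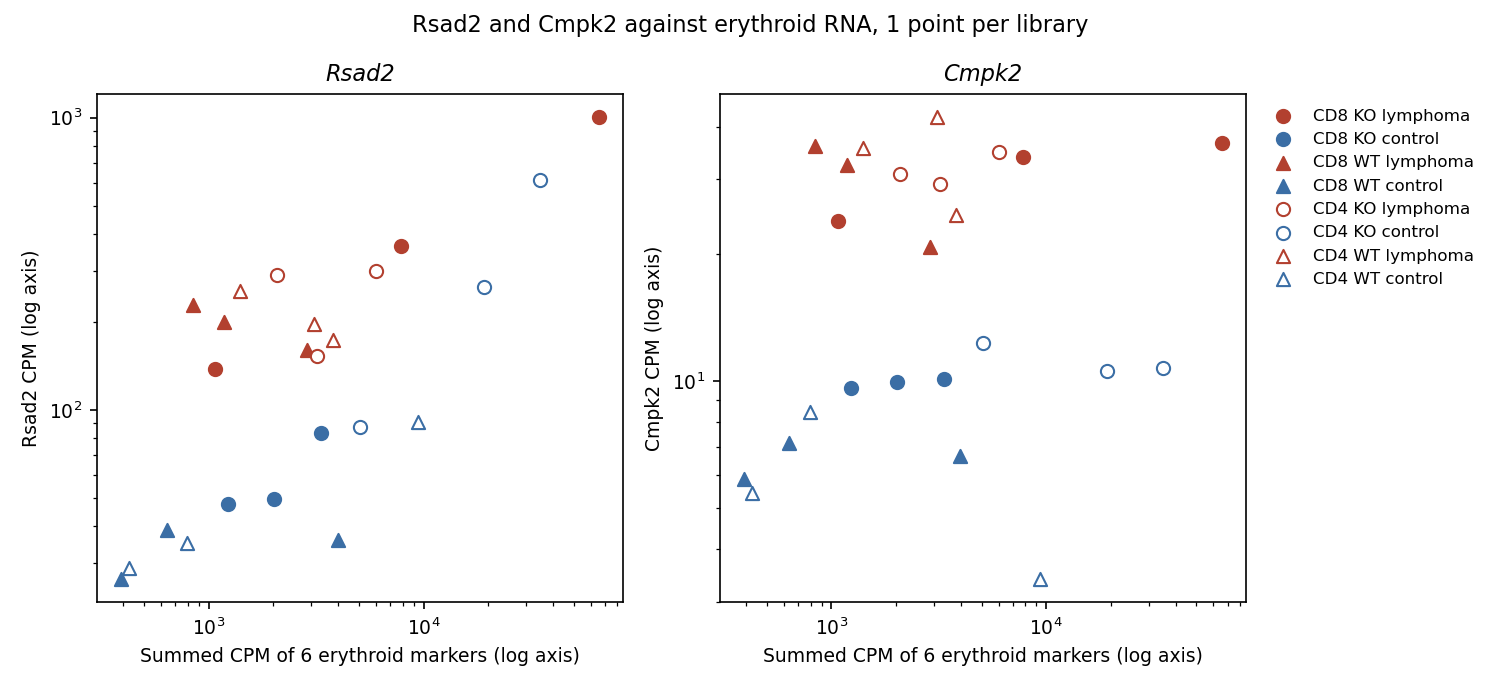
CPM of Rsad2 (left) and Cmpk2 (right) against the summed CPM of 6 erythroid markers in each of 24 libraries, all axes logarithmic; lymphoma is red, control blue, KO circles, WT triangles, CD8 filled and CD4 open. Rsad2 is higher where erythroid RNA is higher among controls and is highest at 65629 CPM of erythroid RNA, while for Cmpk2 every lymphoma library (20.8 CPM or more) lies above every control library (12.3 CPM or less).

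Over the 24 libraries the genes whose log2 CPM was most like the members' mean, each member standardised first, were Rtp4 (r = 0.97), Isg15 (0.96), Oasl2 (0.95), Mx2 (0.94), Ifi27l2a (0.94), Ifih1 (0.93), Nampt (0.93), Dhx58 (0.93), Irf7 (0.93) and Ifi44 (0.93), among 13232 genes compared. Of these 10, all but Nampt, an enzyme gene of NAD synthesis, were on the lists of interferon-stimulated genes and transcription factors. These r follow the split between lymphoma and control in part: within the 12 lymphoma libraries alone they were 0.35 (Nampt) to 0.90 (Rtp4), and within the 12 control libraries 0.51 (Irf7) to 0.88 (Isg15). Ifit1 by itself was most like Zbp1 (r = 0.92), Ifit2 like Slfn5 (0.93), Ifit3 like Rtp4 (0.96), Ifit3b like Cmpk2 (0.94), and Cmpk2 like Oasl2 (0.97). Rsad2 was most like Ube2l6 (0.93), which was on none of the lists. Of the 10 genes most like Rsad2 only Isg15 (0.86) was a member or on a pathway list, and those next after Ube2l6 were Mxd1 (0.89), Nt5c3 (0.88) and Aldh1a1 (0.88). The lists do not hold every interferon-stimulated gene, so a gene outside them can still be one. With the members' mean, which holds it too, each member had r from 0.72 (Ifit2) and 0.78 (Rsad2) to 0.95 (Ifit3b). Among the members themselves, Ifit1 and Ifit3 had r = 0.78 within lymphoma libraries but -0.08 within controls, and Ifit3b and Cmpk2 had r = 0.31 within lymphoma libraries and 0.74 within controls. Pairs with Rsad2 ran from -0.12 to 0.60 in lymphoma and from -0.06 to 0.38 in control libraries (n = 12 each).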

How the data were processed

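The 24 libraries were 3′ tag libraries of poly(A) RNA (Lexogen QuantSeq FWD) from splenic T cells isolated with an EasySep kit, per the labels' protocols. The authors deposited 1 table of estimated counts per gene and library, in whole numbers. Salmon 0.11.3 and the build GRCh38 are named in the submitters' processing notes; the samples are mouse, and the index, the summary to genes and any rounding are not stated there. Of 34113 rows, 2 held a value that was not a number and were left out.

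Groups came from co-receptor, transplantation and genotype in the labels, and the mouse identifiers show that CD8 and CD4 libraries of the same number within a group came from the same mice. Genes were kept by edgeR's filterByExpr (minimum count 10, minimum total 15), libraries were scaled by TMM, and edgeR 4.0.16 (R 4.3.3) fitted a robust quasi-likelihood model to the 12 CD8 libraries (12650 genes), the 12 CD4 libraries (12808 genes) and, for CD8 against CD4, all 24 (13232 genes). Benjamini-Hochberg adjustment ran over all genes of a fit, with calls under 0.05. Deviations from the group mean correlated at over 0.1 in 10 of 12 CD8 and CD4 pairs from the same mice (r from -0.02 to 0.52), and the mouse pool was used as a block in an alternative. Other alternatives were DESeq2 1.42.0, its size factors, limma 3.58.1 voom with sample weights, no filter or a stricter one (30 counts in 3 libraries), Ifit3 and Ifit3b summed, a block on the replicate number, all libraries in 1 fit, each library left out, and covariates for erythroid or Y-linked RNA, which were added after the data were seen. Members and lists were chosen with earlier results of these data known. Likeness is Pearson's r of log2 CPM with a prior count of 2. All 6 members are named, with the pathway genes that passed or, of the larger list, those with the smallest p, except a pathway gene that is not reported here. The procedure was tested on simulated data. Counts are not molecules, since tags were not collapsed by any identifier named in the sources used here. Promoter windows are from RefSeq (GRCm38.p6), and gene positions are from GENCODE M21.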

Additional observations from a re-analysis of the deposited data

How the results depend on the processing

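Scaling by DESeq2's size factors, a stricter filter on low counts and summing Ifit3 with Ifit3b left each count of members called within 1.5 times its value. The other settings moved some counts, and the cause was not tested. In CD8 WT cells, lymphoma versus control, the count was 5 with DESeq2 and with the erythroid score and 6 with voom, against 4. In CD4 WT cells it was 5 with DESeq2, against 4. The count in CD4 KO cells, lymphoma versus control, was 4 with DESeq2, 5 with voom, 1 with no filter and 1 with all 24 libraries in 1 fit, against 0. That in CD8 KO cells was 3 with no filter, 3 with a Y-linked score as covariate, 2 with the erythroid score and 3 with a replicate block on the number, against 5. In CD4 controls, KO versus WT, it was 1 with DESeq2 and 1 with all 24 libraries in 1 fit, against 0. In CD8 versus CD4 cells of KO controls it was 0 with no filter, 0 with the erythroid score, 2 with voom and 4 with the replicate block on the mouse pool, against 1; the mouse pool block also gave 1 in KO lymphoma and 1 in WT control mice, and voom 1 in WT control mice, against 0.

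With 1 library left out, the counts ran from 0 to 5 in CD8 KO, 3 to 4 in CD8 WT, 0 to 2 in CD4 KO and 2 to 4 in CD4 WT cells, from 0 to 1 in CD4 controls, KO versus WT, and from 0 to 1 in KO controls, CD8 versus CD4. In all other comparisons they were 0 throughout.

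Values of members that changed sign were all of differences that had not passed. Between KO and WT with lymphoma, Ifit3b was -0.13 in CD4 and -0.18 in CD8 cells when summed with Ifit3 and -0.0087 in CD4 cells with the number block; with the erythroid score Rsad2 was -0.025 in CD4 and -0.027 in CD8 and Cmpk2 -0.045 in CD8 cells; with voom Cmpk2 was 0.017 and Ifit2 0.020 in CD4 cells. Rsad2 in CD4 KO cells, lymphoma versus control, was 0.74 with the erythroid score and 0.17 with voom, and Ifit1 in CD4 controls, KO versus WT, was -0.23 with the Y-linked score. With 1 library left out, Rsad2 in CD4 KO cells ran from -0.83 to 0.47 and Ifit1 in CD4 controls from -0.20 to 0.18. Between KO and WT with lymphoma, CD4 values ran from -0.44 to 0.073 for Ifit2, -0.36 to 0.51 for Ifit3b and -0.32 to 0.020 for Cmpk2, and CD8 values from -0.81 to 0.0079 for Ifit2, -0.10 to 0.28 for Ifit3b and -0.088 to 0.27 for Cmpk2.

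Across groups of different mice, 10 of 36 pairs of the same replicate number had r over 0.1 (-0.21 to 0.32). All 3 were over 0.1 for CD4 KO with CD4 WT lymphoma (0.17 to 0.32), where the number block gave 0 members called, as without it. Groups of 3 libraries with unequal numbers of mice limit all comparisons, and the counts of pathway genes were recomputed only with the mouse pool block.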
